A study of Mus musculus with 12 samples.

Results

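The liver reads the hormones of feeding and fasting through receptors at the hepatocyte surface, and 8 such receptor genes were followed here in fed and fasted mice. They were Gcgr (glucagon receptor), Lepr (leptin receptor), Adipor1 and Adipor2 (adiponectin receptors), Adra1b (alpha1B-adrenergic receptor), Fgfr4 (fibroblast growth factor receptor 4), Klb (beta-klotho, the co-receptor that Fgfr4 needs for endocrine FGFs) and Egfr (epidermal growth factor receptor). The genes were chosen by name and function, with earlier results of these data known, and they are 8 of the 48795 genes in the deposited table. All 8 were among the 13812 genes with enough counts to be tested.

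RNA from whole liver was sequenced in 12 female mice aged 4 months on normal chow, 3 in each of the 4 groups. Mice 254, 257 and 323 were labelled Nts+/+ and fed, and mice 265, 282 and 322 Nts+/+ and fasted for 22 h. Mice 277, 303 and 319 were labelled Nts-/- and fed, and mice 284, 290 and 295 Nts-/- and fasted for 22 h. Nts encodes neurotensin, a gut and brain peptide released into the circulation after lipid intake. The Nts-/- mice carry a whole-body knockout and were compared with Nts+/+ littermates of their own sex and age. Fed mice had free access to food. The labels name a single batch for all mice.

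The libraries held between 21999647 and 45273069 counts. The targeted gene went against its label. Nts had 0 counts in all 6 libraries labelled Nts+/+, and 46, 40 and 15 counts in those labelled Nts-/- fed and 12, 4 and 18 counts in those labelled Nts-/- fasted. The genotype is therefore given below as the label, and no direction between genotypes rests on more than that label. Hepatocyte markers (Alb, Apoa1, Ttr and others, 5 genes) summed to between 108301 and 143773 TMM-normalized CPM, that is, counts divided by a library total that TMM corrects for composition. In mouse 319, a library labelled Nts-/- fed, the median absolute log2 gap between a gene's value and the rest of its group was 0.252, against 0.153 to 0.215 in the other 11 libraries. The changes of Adipor2, Fgfr4 and Klb are given without it as well.

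These receptors use distinct signalling routes. Glucagon, secreted in fasting, binds Gcgr and raises cyclic AMP, which turns on gluconeogenic genes. Catecholamines act on Adra1b through Gq, phospholipase C and calcium, and this is a route to glycogen breakdown in rodent liver. Leptin signals through Lepr by JAK2 and STAT3 when the long form of the receptor is present, while short and soluble forms carry or bind leptin in blood. Adiponectin binds Adipor1 and Adipor2, which are linked to AMPK and to PPARα. Ileal FGF15 acts through Fgfr4 with Klb to hold down bile acid synthesis after a meal, and Egfr, a receptor tyrosine kinase, binds EGF and TGFα and is abundant in hepatocytes.

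The proximal promoters of 4 of these genes are shown as the letters that lie before the transcription start of genes that changed with fasting, the 2 with the largest changes (Lepr and Adra1b) and 2 with smaller ones (Egfr and Adipor2). They are the 250 bases before a start in RefSeq (GRCm38.p6, the build of the deposited positions), read 5′ to 3′ on the strand of the gene. Capitals mark matches, on either strand, to TGACG (the core of the site for CREB, the cyclic AMP factor), TGTTTAC (a forkhead motif), TTCNNNGAA (a STAT motif), TATAAA and GGGCGG (a GC box).
Lepr (chr4:101717157-101717406, plus strand): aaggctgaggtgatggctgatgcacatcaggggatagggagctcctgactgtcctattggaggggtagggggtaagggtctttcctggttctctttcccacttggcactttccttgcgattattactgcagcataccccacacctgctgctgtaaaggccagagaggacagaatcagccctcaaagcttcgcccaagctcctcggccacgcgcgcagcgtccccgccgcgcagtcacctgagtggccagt
Adra1b (chr11:43901238-43901487, minus strand): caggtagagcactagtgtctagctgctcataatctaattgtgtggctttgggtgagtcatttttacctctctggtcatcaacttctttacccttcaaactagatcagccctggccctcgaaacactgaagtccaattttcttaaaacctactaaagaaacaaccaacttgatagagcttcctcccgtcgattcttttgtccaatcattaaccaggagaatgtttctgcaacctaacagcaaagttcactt
Egfr (chr11:16751953-16752202, plus strand): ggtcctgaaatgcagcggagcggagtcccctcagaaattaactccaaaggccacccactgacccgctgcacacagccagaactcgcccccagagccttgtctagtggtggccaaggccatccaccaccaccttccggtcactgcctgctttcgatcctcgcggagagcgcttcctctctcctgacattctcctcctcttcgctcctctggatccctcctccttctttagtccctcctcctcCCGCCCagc
Adipor2 (chr6:119388735-119388984, minus strand): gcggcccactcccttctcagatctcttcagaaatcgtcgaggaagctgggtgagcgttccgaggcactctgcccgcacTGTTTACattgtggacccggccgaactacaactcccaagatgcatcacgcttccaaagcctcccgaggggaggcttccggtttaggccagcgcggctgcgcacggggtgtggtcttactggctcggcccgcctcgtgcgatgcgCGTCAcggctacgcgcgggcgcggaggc

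In the deposited table (GRCm38), Lepr spans chr4:101717404-101815352, Adra1b chr11:43774606-43901210, Egfr chr11:16752203-16918158 and Adipor2 chr6:119353150-119417704. Adipor1 spans chr1:134415378-134433351, Fgfr4 chr13:55152640-55168759, Klb chr5:65348314-65384007 and Gcgr chr11:120530699-120538986. All 8 genes had at least 1 promoter window, 11 windows in all, and these are the letters next to the changes described below. The Lepr and Adra1b windows printed above held no match to any of the 5 motifs, while the other window of each (chr4:101717656-101717905 for Lepr) held 1 GGGCGG. The Egfr window held 1 GC box on the opposite strand, close to the start. The Adipor2 window held 1 TGTTTAC and 1 TGACG, the second on the opposite strand, and it belongs to a start inside the span of the gene. A window of this length held TGACG for 17.8% of 32851 starts in the table, TGTTTAC for 3.17%, TTCNNNGAA for 7.02%, TATAAA for 12.4% and GGGCGG for 32.7%. Of the 11 windows, 3 held TGACG (Adipor1, Adipor2 and Klb), 7 held GGGCGG and 0 held TTCNNNGAA or TATAAA. The Adra1b window printed above had 41.6% G or C and 3 CG pairs, whereas the other Adra1b window (chr11:43836490-43836739) had 72.8% and 22. A match describes letters and not a bound site.

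Fasting moved 6 of the 8 receptor genes when the fasted against fed change was averaged over the genotype labels, 2 upward (Lepr and Adipor1) and 4 downward (Adra1b, Egfr, Adipor2 and Fgfr4). Only Lepr and Adra1b changed by more than 2-fold. Gcgr and Klb did not pass the test. The share of all 13812 genes that passed in this comparison was 32.8%, with 16.0% higher and 16.8% lower. The count of 6 among 8 stands beside that share as a description only, since the genes were chosen with earlier results known. With 3 mice to a group, p-values weigh a difference against the spread between mice, estimated over all 4 groups together. Whole liver cannot tell fewer cells of a type from less RNA per cell.

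**Figure D1:**
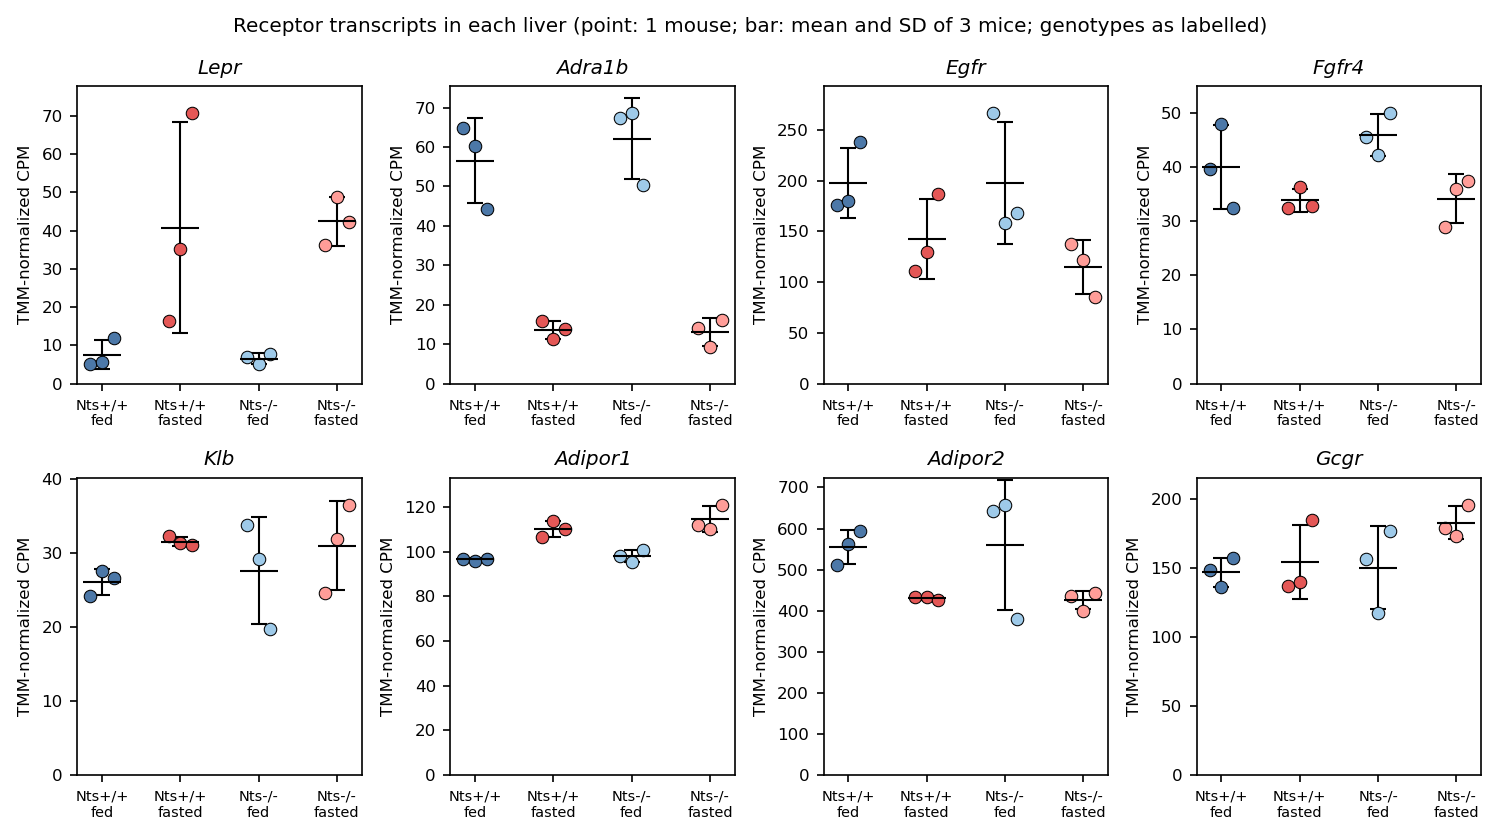
TMM-normalized CPM of each receptor gene (vertical axis, from 0, each gene on its own scale) in the 4 groups (horizontal axis), with 1 point per mouse and a bar for the mean and SD of 3 mice. The 6 fasted mice lie above the 6 fed mice for Lepr (16.4 to 70.7 against 5.03 to 12.0) and Adipor1 and below them for Adra1b (9.18 to 16.1 against 44.3 to 68.6), while the other 5 genes overlap.

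Lepr, the leptin receptor, rose most. Its TMM-normalized CPM was 5.17, 5.52 and 12.0 in fed and 16.4, 35.2 and 70.7 in fasted livers labelled Nts+/+. In livers labelled Nts-/- it was 6.85, 5.03 and 7.74 when fed and 36.1, 48.8 and 42.2 when fasted. Every fasted mouse was above every fed mouse, and the 3 fasted mice labelled Nts+/+ were the most scattered, with mouse 265 low and mouse 322 high (SD 27.6 around a mean of 40.8, against 6.35 around 42.4 in the other fasted group). The averaged change was 5.94-fold, a log2 fold change of 2.57 ± 0.36 (SE), with a 95% interval of 1.76 to 3.39 and an edgeR adjusted p of 0.000619. Within labels the log2 fold change was 2.45 (adjusted p = 0.0109) for Nts+/+ and 2.70 (adjusted p = 0.00739) for Nts-/-. The Nts+/+ call was lost when only those 6 mice were fitted (adjusted p = 0.0799) and without mouse 254 (adjusted p just over 0.05), with log2 fold changes of 2.44 and 2.23. Without mouse 322 the Lepr change under that label was 1.79, still called, and the fits without 1 mouse ranged up to 2.94 (without mouse 323).

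The Lepr row counts all forms of the receptor together, so the long signalling form and the short forms were not told apart. Leprot encodes a small membrane protein that limits Lepr at the cell surface. It was between 17.0 and 20.1 TMM-normalized CPM in fed and between 15.5 and 20.7 in fasted mice, a log2 fold change of -0.06 (adjusted p = 0.626). Per kilobase of the longest transcript, the Lepr level was 0.147 to 0.354 of the Leprot level in fed livers and 0.606 to 2.11 in fasted ones, with no overlap. The related Leprotl1 fell by 0.30 on the log2 scale (adjusted p = 0.0292), a call lost in 6 of the 12 fits without 1 mouse.

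Adra1b fell most. Its TMM-normalized CPM was 64.9, 60.4 and 44.3 in fed and 15.9, 11.3 and 13.7 in fasted livers labelled Nts+/+. In livers labelled Nts-/- it was 67.4, 68.6 and 50.3 when fed and 14.2, 9.18 and 16.1 when fasted. The lowest fed mouse, 323, still held a level above that of the highest fasted mouse, and the spread within each group was small beside the gap. The averaged fold was 4.42 downward, a log2 fold change of -2.14 ± 0.16 (SE), with an adjusted p of 1.5e-06. The fall was -2.05 (adjusted p = 0.000126) under the Nts+/+ label and -2.24 (adjusted p = 5.16e-05) under the Nts-/- label, and it passed under every setting and every left-out mouse that was run for these 3 comparisons.

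Egfr fell 1.55-fold when averaged over the labels. Its TMM-normalized CPM was 176, 179.8 and 238 in fed and 111, 129.8 and 187 in fasted livers labelled Nts+/+, and 267, 158 and 168 in fed and 138, 121 and 85.5 in fasted livers labelled Nts-/-. The groups overlapped through mouse 322, a fasted mouse at 187 that stood above 4 of the 6 fed mice, and the other 5 fasted mice lay below every fed mouse. The averaged log2 fold change was -0.63 ± 0.18 (SE), with an adjusted p of 0.0161. Under the Nts-/- label alone the change was -0.78, with an adjusted p of 0.0498, and this call was lost in 7 of the alternative fits. Without mouse 277, the highest fed mouse, it was -0.51 (adjusted p = 0.210). Under the Nts+/+ label it was -0.47 (adjusted p = 0.214).

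The 2 adiponectin receptors moved in opposite directions, both by small amounts. Adipor2, the more abundant receptor in liver and one tied to PPARα, fell by 0.38 ± 0.13 (SE) on the log2 scale when averaged (adjusted p = 0.0321). It was 511, 561 and 594 TMM-normalized CPM in fed and 435, 433 and 425 in fasted livers labelled Nts+/+, and 643, 658 and 379 in fed and 435, 399.9 and 443 in fasted livers labelled Nts-/-. Mouse 319, a fed mouse at 379, lay below every fasted mouse, while every other fed mouse lay above them all. Its library was the one noted above for its distance from its group. Without mouse 319 the averaged change was -0.49 (adjusted p = 0.000853) and the change under the Nts-/- label passed at -0.61 (adjusted p = 0.00551). With it, neither label passed alone (-0.37, adjusted p = 0.171, and -0.39, adjusted p = 0.144), and the averaged call was lost in 9 of the 12 fits that left out 1 mouse, with adjusted p up to 0.0856.

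Adipor1, linked to AMPK, rose by 0.21 ± 0.07 (SE) on the log2 scale (1.16-fold, adjusted p = 0.0336). It was 96.8, 95.9 and 96.7 TMM-normalized CPM in fed and 107, 114 and 110.3 in fasted livers labelled Nts+/+, and 98.0, 95.1 and 101 in fed and 112, 110.3 and 121 in fasted livers labelled Nts-/-. Over the 6 fed mice it had the smallest SD of the 8 genes, 1.94. All 6 fasted mice lay above all 6 fed mice. The call was lost in 10 of the alternative fits, with adjusted p between 0.0524 and 0.114. The ratio of Adipor2 to Adipor1 per kilobase was 3.53 to 6.49 in fed and 3.40 to 3.82 in fasted livers. Mouse 319 gave the lowest fed ratio, and the other 5 fed mice lay above every fasted mouse.

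Fgfr4 and Klb form 1 receptor for endocrine FGFs. Fgfr4 fell by 0.33 ± 0.10 (SE) on the log2 scale (adjusted p = 0.0246). It was 39.5, 47.9 and 32.5 TMM-normalized CPM in fed and 32.3, 36.3 and 32.7 in fasted livers labelled Nts+/+, and 45.5, 42.1 and 49.9 in fed and 28.9, 36.0 and 37.4 in fasted livers labelled Nts-/-. The fed mouse 323, at 32.5, was as low as the fasted mice. Without mouse 319, the highest fed mouse, the Fgfr4 change was -0.30 (adjusted p = 0.0490). The averaged call was lost without mouse 257, without mouse 265 and without mouse 284 (adjusted p = 0.0656, 0.0565 and 0.0744).

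Klb did not pass in the averaged comparison, with a log2 fold change of 0.22 ± 0.13 (SE), a 95% interval of -0.05 to 0.49 and an adjusted p of 0.202. It was 24.2, 27.5 and 26.6 TMM-normalized CPM in fed and 32.3, 31.3 and 31.0 in fasted livers labelled Nts+/+, which did not overlap, and 33.8, 29.2 and 19.7 in fed and 24.6, 31.8 and 36.5 in fasted livers labelled Nts-/-, which did. Without mouse 319, the lowest at 19.7, the Klb change was 0.13 (adjusted p = 0.365), and under the Nts-/- label alone it went from 0.17 to -0.02, neither of them called. The Klb to Fgfr4 ratio per kilobase was 0.396 to 0.820 in fed mice and 0.853 to 1.00 in fasted mice, so every fasted mouse held more Klb transcript per Fgfr4 transcript than every fed mouse.

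**Figure D2:**
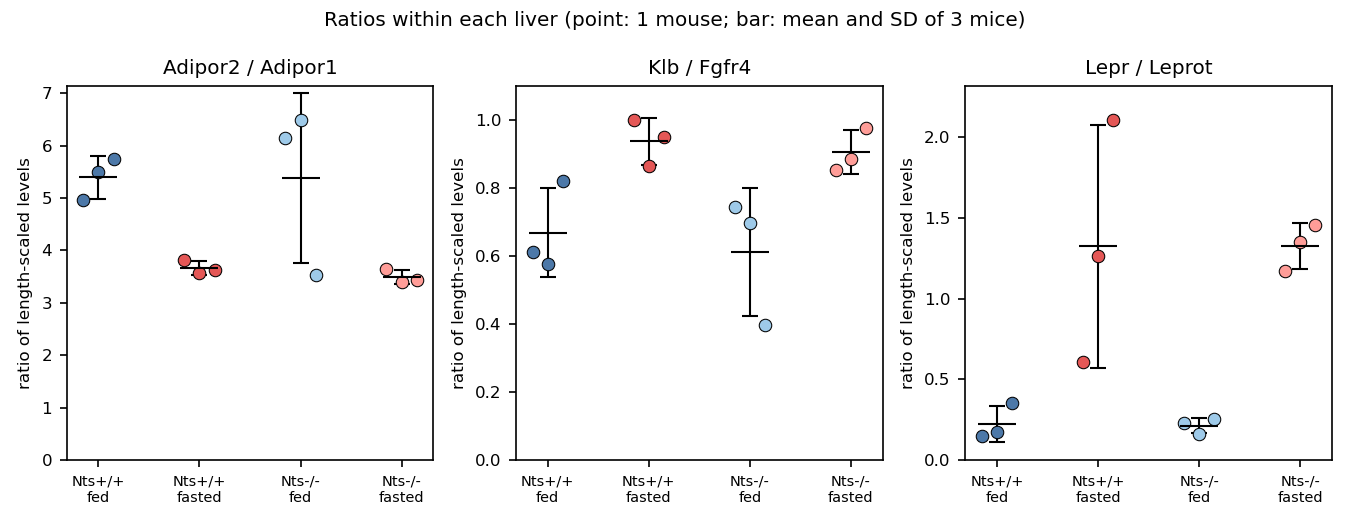
Ratio of 2 length-scaled levels within each liver (vertical axis, from 0, no unit) by group (horizontal axis), with 1 point per mouse and a bar for the mean and SD of 3 mice. Fed and fasted mice do not overlap for Klb over Fgfr4 and for Lepr over Leprot, and for Adipor2 over Adipor1 the fed mouse 319 lies among the fasted mice at 3.53.

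Gcgr, the receptor through which glucagon acts on hepatocytes, did not pass. It was 148, 136 and 157 TMM-normalized CPM in fed and 137, 140.2 and 185 in fasted livers labelled Nts+/+, and 156, 117 and 177 in fed and 179, 173 and 196 in fasted livers labelled Nts-/-. The fed and fasted ranges overlapped through most of their length. The averaged log2 fold change was 0.18 ± 0.11 (SE), with an adjusted p of 0.260, and its 95% interval of -0.07 to 0.42 leaves room for a rise of up to 1.34-fold. Mouse 319, at 177, was the highest fed mouse. Over the 12 fits without 1 mouse the averaged Gcgr change ranged from 0.10 to 0.24, with adjusted p no lower than 0.110. The gene overlaps 1086 bases of Gm11789, an antisense gene on the other strand (chr11:120526855-120531784, GRCm38) that had 360 to 1285 counts and a log2 fold change of 0.55 (adjusted p = 0.00176). Whether counting used strand is not given in the sources used here, so reads of the shared stretch could not be assigned to either gene with certainty. Egfr holds a like neighbour, Egfros, but that had at most 1 count.

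Looked at within each label, 2 of the 8 genes passed under the Nts+/+ label (Lepr and Adra1b), where 18.1% of all genes did. Under the Nts-/- label 3 of 8 passed (Lepr, Adra1b and Egfr), where 16.8% of all genes did. In log2 fold changes the 8 genes had the same sign under both labels. By plain overlap of values, 3 of the 8 (Lepr, Adra1b and Adipor1) did not overlap between the 6 fed and the 6 fasted mice, and 15.9% of all tested genes did not. The median averaged log2 fold change of the 8 genes was -0.08, beside -0.01 for all genes tested.

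**Figure D3:**
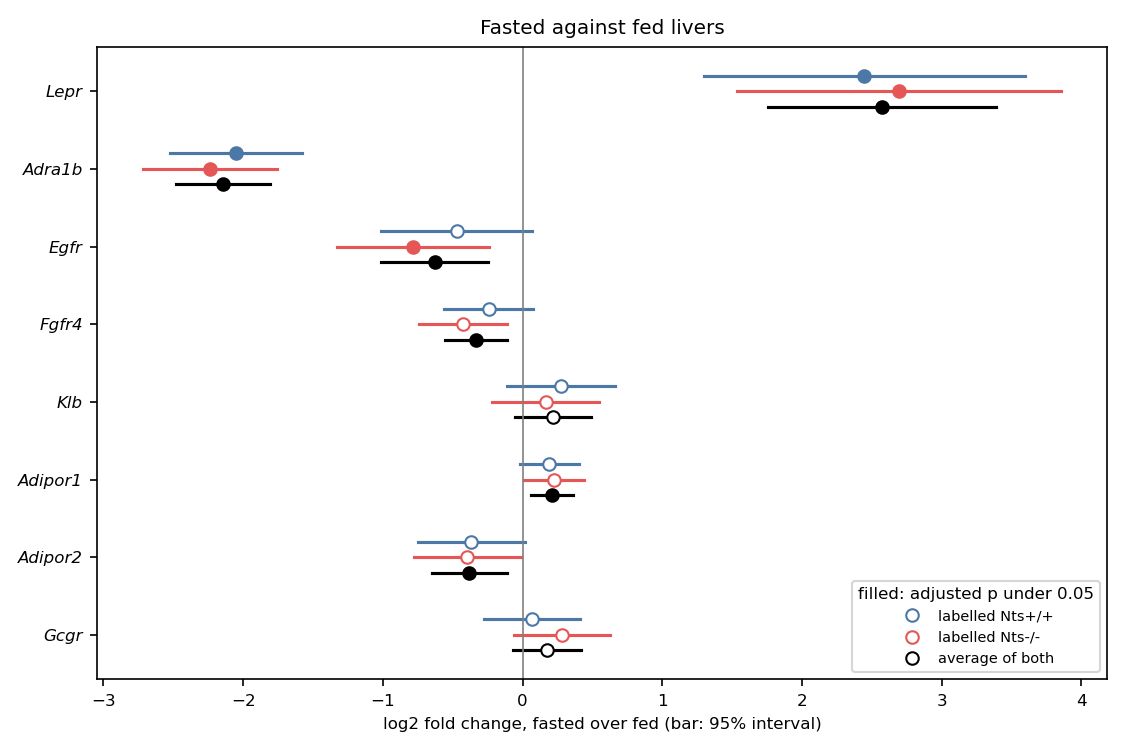
Log2 fold change of fasted over fed livers (horizontal axis) for each receptor gene (vertical axis), under each genotype label and averaged, with 95% intervals and filled points for adjusted p under 0.05. Lepr (2.57 averaged) and Adra1b (-2.14) stand far from 0, and the other 6 lie between -0.63 and 0.22 when averaged.

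No difference between the genotype labels passed the test for any of the 8 genes. In fed livers, the log2 fold change of the label Nts-/- over Nts+/+ ran from -0.20 (Lepr) to 0.20 (Fgfr4), and in fasted livers from -0.31 (Egfr) to 0.25 (Gcgr). With edgeR, 0 of 8 genes passed in fed livers, in fasted livers, averaged over feeding states and in the difference of the fasting changes, and 0 percent of all genes did in each of these 4 comparisons. At an unadjusted p under 0.05 there were also 0 of the 8, among 876, 685, 859 and 663 of all tested genes, and with DESeq2 0 of the 8, among 12, 4, 16 and 3. Any direction between these groups rests on labels that the Nts counts go against.

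The intervals set how large a difference could have been missed. For Adipor1 the 95% interval of the fed difference was -0.19 to 0.23 and that of the fasted difference was -0.16 to 0.27, so a difference of more than 1.20-fold lay outside both. For Adra1b the fed interval was -0.31 to 0.59 and the fasted interval -0.52 to 0.42. For Lepr they were wide, from -1.34 to 0.95 when fed and from -1.01 to 1.11 when fasted, which leaves room for up to 2.54-fold. The difference of the fasting changes was smallest in size for Adipor2 (-0.03, interval -0.57 to 0.51) and largest for Egfr (-0.31, interval -1.08 to 0.45), and a p that misses the threshold does not show that the labels were alike.

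**Figure D4:**
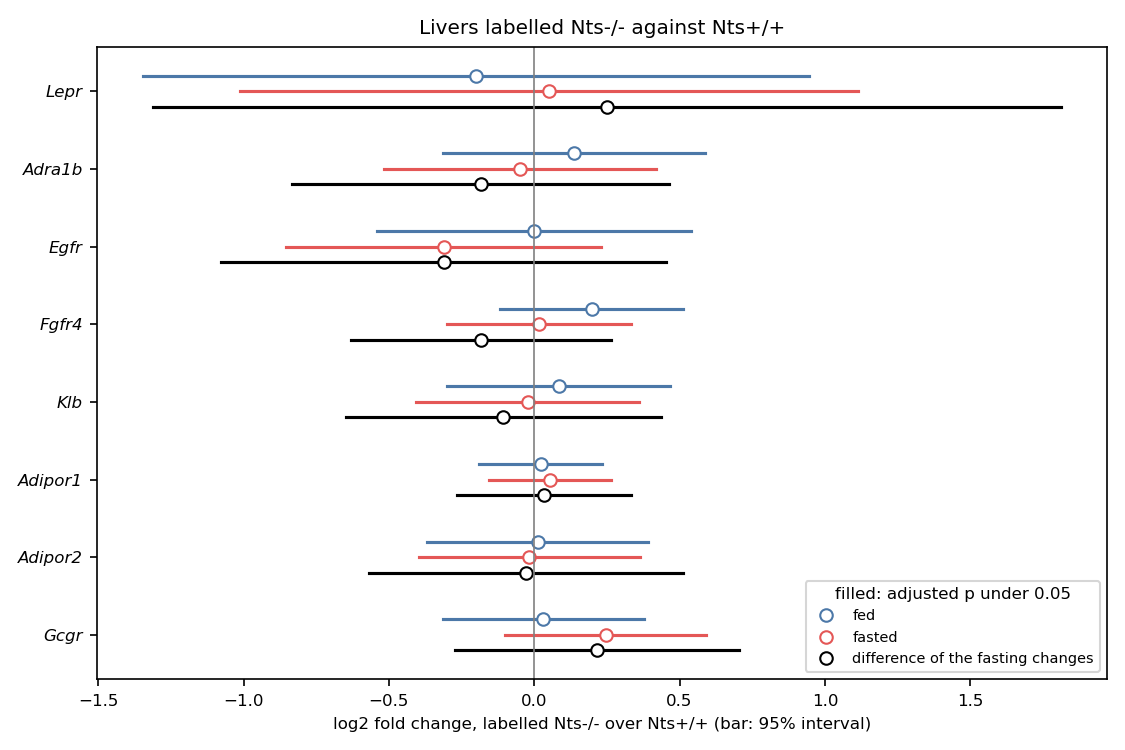
Log2 fold change of livers labelled Nts-/- over Nts+/+ (horizontal axis) for each receptor gene (vertical axis), in fed and in fasted livers and as the difference of their fasting changes, with 95% intervals. Every interval crosses 0 and no point is filled, with Lepr the widest (up to 1.81) and Adipor1 the narrowest.

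Scaled for length, the receptors spanned a wide range of levels. Over the 12 mice the mean TMM-normalized CPM per kilobase of the longest transcript was 103 for Adipor2, 63.4 for Gcgr, 23.4 for Adipor1, 16.0 for Egfr, 10.9 for Adra1b, 9.51 for Fgfr4, 7.20 for Klb and 3.11 for Lepr. Adipor2 was above Gcgr, and Gcgr above Adipor1, in all 12 mice with no overlap of their ranges. The neighbours from Adipor1 downward overlapped in range, and for Adra1b over Fgfr4 only 6 of 12 mice held the order. The same order came from the length of all annotated exons joined.

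The order at its lower end turned over with fasting. In fed livers Adra1b ranked 5th (17.0 ± 3.25 and 18.7 ± 3.08 per kilobase under the 2 labels, SD, n = 3), level with Egfr within their ranges, and Lepr ranked 8th (0.966 ± 0.490 and 0.837 ± 0.176). In fasted livers Adra1b ranked 8th (4.10 ± 0.701 and 3.94 ± 1.07) and Lepr 7th (5.22 ± 3.53 and 5.42 ± 0.813). Lepr was above Adra1b in 2 of 3 fasted mice labelled Nts+/+ and in 3 of 3 labelled Nts-/-, and their ranges overlapped in both groups.

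Of 31 relatives and partner genes of these receptors, 23 could be tested, and 4 rose and 5 fell in the averaged comparison, where 32.8% of all genes were called. Among the adrenergic receptors, Adra2a rose by 3.75 on the log2 scale (adjusted p = 0.00113), from 0.0724 to 0.798 TMM-normalized CPM in fed to 2.08 to 17.9 in fasted mice, with no overlap. The fed values of Adra2a rest on 2 to 18 counts per mouse, and the lowest, in mouse 303, lies under the floor of 3 counts. Without mouse 322, the highest, the Adra2a rise was 3.07. Adra1a, the other alpha1 receptor with counts here, rose by 0.97 (adjusted p = 0.00521), from 2.90 to 4.88 in fed to 5.17 to 12.0 in fasted mice. The third alpha1 gene, Adra1d, had at most 1 count and was not tested. Adra2b fell by 0.58, while Adrb1 and Adrb3 had averages of -0.12 and -0.57 and did not pass.

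Among FGF and EGF receptors, Fgfr3 fell by 1.16 on the log2 scale (adjusted p = 9.95e-06), with 16.8 to 24.0 TMM-normalized CPM in fed and 7.67 to 9.90 in fasted mice. Fgfr2 fell by 0.53 (adjusted p = 0.00156). Erbb4, a receptor for neuregulins, fell by 1.62 (adjusted p = 0.00434) on 6 to 64 counts per mouse. Fgfr1, Fgfrl1, Erbb2 and Erbb3 did not pass, with changes of 0.14, 0.19, 0.36 and 0.09, so of the 4 Erbb family genes Egfr and Erbb4 fell. Paqr3 and Paqr7, of the family of the adiponectin receptors, rose by 0.70 and 0.66, and Paqr4, Paqr8 and Paqr9 did not pass.

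Of 14 ligand genes, 7 could be tested, and 2 rose in the averaged comparison, where 32.8% of all genes were called. Fgf21, the fasting hormone that the liver itself secretes and that needs Klb, rose by 2.96 (adjusted p = 4.23e-05), from 0.869 to 4.21 TMM-normalized CPM in fed to 18.2 to 25.4 in fasted mice. Fgf1 rose by 0.46 (adjusted p = 0.0239), a call lost in 4 of the 12 fits without 1 mouse. Tgfa, Egf, Btc, Hbegf and Fgf2 did not pass. Gcg, Lep and Fgf15, made in pancreas, fat and ileum, had 0 counts in all 12 libraries, where 3 counts correspond to 0.0663 to 0.136 CPM, and Adipoq had at most 5.

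The lists of signalling genes downstream of the receptors are given for the averaged comparison, beside the same 32.8% of all genes. Of 36 tested genes of glucagon and cyclic AMP signalling, 4 rose and 5 fell. Adcy6, an adenylyl cyclase, rose by 1.09, Pde4d, a phosphodiesterase that breaks cyclic AMP down, by 0.93 and Creb3l3 by 0.72, while Adcy5 fell by 0.95, Grk5 by 0.85 and Pde4c by 0.62. Of 14 glucagon target genes, 6 rose and 1 fell, with Pck1 up by 1.25, Got1 by 1.16 and G6pc by 1.15 and Gls2 down by 0.64. The median of the 14 was 0.54, beside -0.01 for all genes, while Gcgr itself did not pass.

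Of 17 tested leptin and JAK-STAT genes, 1 rose (Ptpn11, by 0.37) and 6 fell, led by Socs2 (-1.43), Cish (-0.94) and Tyk2 (-0.68). Socs2 and Cish are feedback inhibitors of cytokine receptors that are also known targets of growth hormone through STAT5, and the Socs2 call (adjusted p = 0.0255) was lost in 4 of the 12 fits without 1 mouse. Of 15 tested genes of adiponectin receptor signalling, 4 rose and 1 fell, with Ppara up by 0.75, Cab39 by 0.35, Acer2 by 0.33 and Camkk2 down by 1.18. The Acer2 call (adjusted p = 0.0389) was lost in 8 of the 12 fits without 1 mouse.

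Of 27 genes of alpha1-adrenergic and calcium signalling, 4 rose and 8 fell. The falls were led by Rgs3 (-1.18), Pygl (-0.95), the liver glycogen phosphorylase, and Itpr3 (-0.72), a calcium channel of the endoplasmic reticulum, and the rises by Rgs16 (2.29), Atp2a2 (0.60) and Gna11 (0.28). The Rgs16 call (adjusted p = 0.0447) was lost in 10 of the 12 fits that left out 1 mouse, with log2 fold changes of 1.94 (without mouse 282) to 2.99 (without mouse 277), and that of Gna11 in 1. The median of the 27 was -0.12. Of 40 genes of FGF and EGF receptor signalling, 5 rose and 3 fell, with Cyp8b1, a bile acid enzyme held down by FGF15, up by 1.75, Cblb by 0.76 and Braf by 0.69, and Ccnd1 down by 0.86, Spry2 by 0.72 and Mapk3 by 0.44. The Spry2 call (adjusted p = 0.0268) was lost in 8 of the 12 fits without 1 mouse.

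A list of 27 other tested hormone and cytokine receptors put the 8 genes in context. In the averaged comparison 8 were higher and 10 lower, where 32.8% of all genes were called. Adora1 (1.56), Tfrc (1.51) and Nr1i3 (1.08) led the rises, and the falls included Lifr (-1.93) and Prlr (-1.02). Ntsr1, a neurotensin receptor, had 0 counts in all 12 libraries. No gene of any of these lists passed in a comparison of the genotype labels with edgeR, at the 0 called genes given above.

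**Figure D5:**
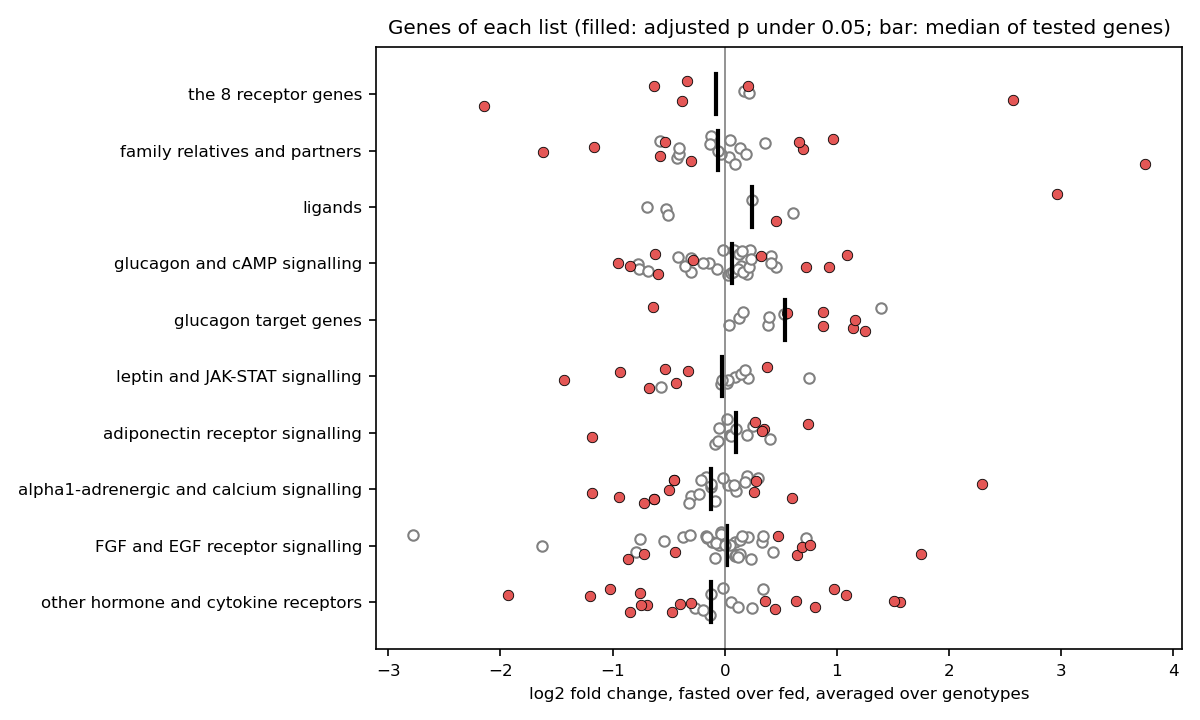
Averaged log2 fold change of fasted over fed livers (horizontal axis) for each tested gene of each list (vertical axis), filled where adjusted p was under 0.05, with a bar at the list's median. Medians lie between -0.12 and 0.24 in every list but the 14 glucagon targets (0.54), and Lepr and Adra1b lie beyond most genes of the receptor lists.

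Some markers of other liver cells passed in the averaged comparison, where 32.8% of all genes did. Of 6 stellate markers 4 fell and none rose, of 6 sinusoidal endothelial markers 3 fell and 1 rose, and of 6 Kupffer markers and 4 cholangiocyte markers 1 of each fell. The summed endothelial level was 142 to 207 TMM-normalized CPM in fed and 121 to 146 in fasted mice, and the summed stellate level 187 to 265 against 184 to 209. The summed Kupffer level was 408 to 483 in fed and 201 to 349 in fasted livers labelled Nts+/+, and 250.3 to 349 and 261 to 404 in those labelled Nts-/-. The summed cholangiocyte level was 33.4 to 49.7 in fed and 13.7 to 29.6 in fasted mice. The part of these cells in the falls of Adra1b, Egfr, Fgfr4, Fgfr3 and the others was not tested. Of 5 hepatocyte markers, 2 rose and 1 fell. The 5 adipocyte markers summed to at most 0.0443 TMM-normalized CPM in fed and to between 0.0472 and 0.260 in fasted mice. Lep and Retn were at 0 counts in every library, and 0 of the 5 passed the count filter. Each fasted sum was above each fed sum. However, every fed sum and the fasted sums of 0.0472 and 0.0916, both labelled Nts-/-, lay under the floor of 3 counts. With so few counts, these sums cannot establish a difference between fed and fasted mice. The part of adipocyte markers in the rise of Lepr was not tested. Of the 4 exocrine pancreas markers, Pnlip and Cpa1 were at 0 in every library and Prss2 in every group but the fed livers labelled Nts-/-. Cela2a had counts in every group. The 4 summed to between 0.0949 and 0.443 TMM-normalized CPM, and 0 of them passed the count filter.

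The genes that tracked each receptor over the 12 mice are given as a description only, since feeding state moves many genes together. For Adra1b the most alike were Insig1 (Pearson r = 0.989), Fdps (0.989) and Paox (0.987) on the log2 scale. Insig1 and Fdps belong to the sterol pathway, and they fell by 3.38 and 4.03. For Lepr they were Tmed4 (0.982), Ddx28 (0.967) and Srd5a3 (0.966), all with higher values in fasted mice. For Adipor1 they were Fbxo31 (0.965), Mrpl16 (0.963) and Chchd10 (0.957).

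For the other 5 receptors the highest r was between 0.912 and 0.951. Adipor2 was most like Zfp442 (0.951), Colec10 (0.946) and Naalad2 (0.943), Fgfr4 like Gstm2-ps1 (0.939), Raph1 (0.929) and Rfng (0.921), and Egfr like Eri1 (0.927) and Socs2 (0.911). Gcgr was most like R3hdm4 (0.921), Atraid (0.896) and Dctn3 (0.892), and Klb like Adcy9 (0.912), Pcnx (0.883) and Ap3d1 (0.879). Between the receptors themselves, r was -0.94 for Lepr with Adra1b and 0.90 for Lepr with Adipor1, over the same 12 mice and set by the same feeding states.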

How the data were processed

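Liver RNA of 12 mice (4 groups of 3) was measured by RNA-seq. The authors deposited expected counts per gene, estimated from reads by RSEM after Trimmomatic per the submitters' processing notes, on GRCm38 and without scaling between mice. Of these values 7.94% were not whole, and all were rounded here. Versions, the annotation release and the use of strand are not given in the sources used here. In R 4.3.3, edgeR 4.0.16 kept 13812 of 48795 genes (filterByExpr), scaled them with TMM and fitted a mean per group over all 12 mice with robust quasi-likelihood tests. Genes were called at a Benjamini-Hochberg adjusted p under 0.05 over all tested genes. Columns of other samples numbered 0. Fasted was compared with fed, and Nts-/- with Nts+/+, within groups, averaged and as a difference of differences. The biological coefficient of variation was 0.202.

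Levels between genes were divided by the longest transcript in GENCODE vM39, which matched 99.2% of tested genes by identifier. The 8 receptor genes and all lists were chosen with earlier results of these data known. Named genes were the receptors, every tested relative and ligand by value or count, up to 3 higher and 3 lower called genes with the largest averaged change of each other list, and the 3 genes most like each receptor (Pearson r of log2 TMM-normalized CPM, pseudocount 0.5). Some genes that this rule names are not reported here. Promoters came from RefSeq (32851 windows of 27025 genes). Alternatives were other scalings (RLE, upper quartile), the DESeq2 1.42.0 Wald test, dropping the filter, a filter of 10 counts in each of the libraries, a fit of the compared groups alone, removal of the length trend, calls at 0.10 or with a log2 change of 1 or more in size, and leaving out each mouse. The steps were tested on simulated data. Depths of 21999647 to 45273069 counts put a floor of 3 counts at 0.0663 to 0.136 CPM, which covers counting error only. Each mouse was taken as a separate sample from its own number in the labels.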

Additional observations from a re-analysis of the deposited data

How the results depend on the processing

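The count of receptor genes called between fasted and fed livers, averaged over labels, was 6, beside 4524 of the 13812 genes tested. It was 2 (Lepr and Adra1b), beside 1082 of 13812, when a log2 change of 1 or more in size was also required. Leaving out 1 mouse gave 3 to 6, beside 3729 to 4594 called genes. It was 3 without mouse 257 (beside 3979 of 14041 genes) and 3 without mouse 284 (beside 3930 of 14093). In those fits Adipor1, Adipor2 and Fgfr4 were lost, and Lepr, Adra1b and Egfr stayed called. Under the Nts+/+ label the count of 2 (beside 2501 of 13812 genes) became 1 (Adra1b) with only the mice compared (2036 of 13293). Leaving out 1 mouse gave 1 to 2, with 1 without mouse 254 (1326 of 14012 genes). Under the Nts-/- label the count of 3 (beside 2326 of 13812) stayed between 2 and 4. Called genes there ranged from 915, with a log2 change of 1 or more required, to 3424 at an adjusted p under 0.10. The cause was not tested. Counts for the genotype labels stayed at 0 under every alternative that was run. At most 16 of 13812 genes were called in these comparisons (DESeq2, averaged over feeding states). No called gene changed direction. Without the count filter the averaged calls of Adipor1, Leprotl1, Pck1, Socs2, Rgs16 and Spry2 were lost, and with upper-quartile scaling those of Adipor1 and Acer2. Scaling moved the median of all genes by less than 0.05 on the log2 scale.

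No paired analysis was possible because the labels give each mouse its own number. Forms of Lepr were not told apart, and the library of mouse 319 lies farther from its group than the others.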
